A study of Mus musculus with 8 samples.

Results

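The genes described here encode 10 enzymes that make serine, glycine and creatine or pass carbon units between them. They are Gatm, Gamt, Sardh, Phgdh, Psat1, Psph, Shmt1, Shmt2, Mthfd2 and Gldc, 10 of the 55487 gene identifiers measured by RNA sequencing in mouse pancreatic islets. All 10 were among the 16266 genes with enough counts to be tested. They were chosen by their counts and TPM in Ide-/- against Ide+/+ islets and by how they varied with acinar enzyme counts within Ide+/+, so their own values in that comparison are given as a description, without a test. The samples were hand-picked islets of C57BL/6J mice, labelled female, that ate a 60 kcal% fat diet for 2 weeks from 10 weeks of age. The 3 Ide-/- samples came from mice lacking Ide, the gene of insulin-degrading enzyme, a protease that cleaves insulin and other short peptides, and the 5 Ide+/+ samples from mice with the intact gene. All 8 are labelled biological replicates, but the labels state neither how the allele was made nor how many animals gave the islets of a sample.

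As background, serine is made from the glycolytic intermediate 3-phosphoglycerate. PHGDH oxidises it, PSAT1 adds the amino group and PSPH removes the phosphate. SHMT1 in the cytosol and SHMT2 in mitochondria split serine into glycine and a carbon unit carried on folate, which MTHFD2 oxidises further in mitochondria. GLDC, the decarboxylase of the glycine cleavage system, breaks glycine down again in mitochondria, and SARDH forms glycine from sarcosine. GATM joins glycine to the guanidine group of arginine, and GAMT methylates the product to creatine. The exocrine pancreas is known for strong creatine synthesis and for heavy use of amino acids in digestive enzyme production. ATF4, which cells make more of when amino acids run short, is known to switch on several of the serine genes.

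The libraries held 7143415 to 17445935 counts in Ide-/- samples and 19277269 to 33371642 in Ide+/+ samples. Ide itself had 0.167, 0.285 and 0.367 CPM (counts scaled to a common library size with TMM factors) in Ide-/- libraries, against 19.5 to 39.2 CPM in Ide+/+ libraries. Counts of 29 acinar enzyme genes took 1.06%, 2.49% and 2.59% of the Ide-/- libraries. In Ide+/+ replicates 1 to 5 they took 74.8%, 40.1%, 40.5%, 63.2% and 68.5%. All 29 acinar enzymes and all 10 genes of acinar identity were lower in Ide-/- islets (edgeR quasi-likelihood test, adjusted p under 0.05), and Cela3a had no count in any Ide-/- library. Acinar identity genes summed to 133 to 323 CPM in Ide-/- and 7740 to 39200 CPM in Ide+/+ libraries. Of 6 duct markers 4 were lower (summed 49.4 to 58.3 CPM in Ide-/-, against 102 to 167 CPM in Ide+/+), and of 6 macrophage markers 5 were (14.1 to 16.9 CPM, against 39.9 to 60.3 CPM in Ide+/+). Of 6 endothelial markers 1 was lower, and of 10 beta cell, 5 alpha cell and 6 fibroblast and stellate markers 0 were. Over all tested genes 10.6% were lower. Mitochondrial genes took 9.81% to 28.2% of Ide-/- and 0.512% to 9.43% of Ide+/+ counts. The beta cell markers summed to 83700 to 106000 CPM in Ide-/- and 35300 to 138000 CPM in Ide+/+, which overlapped. In bulk islets fewer acinar cells and less RNA per acinar cell cannot be told apart, and the part of the acinar difference in the results below was not tested. Ide+/+ replicate 1 also stood apart. It had 692 counts of Xist and 0 of the Y-linked gene Ddx3y, while the other 7 libraries had at most 11 of Xist and 503 to 2139 of Ddx3y, against the labelled sex.

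Promoter sequence is shown for the 3 members in which a searched motif lay in the 250 bases before the start and for Gldc, which differed in the other direction. The bases are from RefSeq on GRCm38.p6, 5' to 3' on the gene's strand (minus for all 4), with matches in capitals. Sardh lies at chr2:27247304-27247553, Shmt2 at chr10:127522445-127522694, Phgdh at chr3:98339970-98340219 and Gldc at chr19:30175442-30175691.
Sardh: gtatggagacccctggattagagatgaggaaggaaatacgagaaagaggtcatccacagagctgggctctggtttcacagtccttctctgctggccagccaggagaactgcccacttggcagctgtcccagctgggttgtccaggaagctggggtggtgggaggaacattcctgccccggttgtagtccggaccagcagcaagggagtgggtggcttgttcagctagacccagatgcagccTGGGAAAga
Shmt2: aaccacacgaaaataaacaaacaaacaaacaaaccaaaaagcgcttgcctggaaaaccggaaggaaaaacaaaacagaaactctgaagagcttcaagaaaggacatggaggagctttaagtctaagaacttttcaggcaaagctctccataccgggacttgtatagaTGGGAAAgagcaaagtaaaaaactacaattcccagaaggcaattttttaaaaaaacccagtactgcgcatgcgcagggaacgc
Phgdh: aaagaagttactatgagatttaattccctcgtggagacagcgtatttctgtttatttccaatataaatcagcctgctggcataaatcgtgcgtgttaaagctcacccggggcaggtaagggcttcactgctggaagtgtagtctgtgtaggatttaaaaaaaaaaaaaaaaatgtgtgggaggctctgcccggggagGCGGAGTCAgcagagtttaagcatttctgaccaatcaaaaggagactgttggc
Gldc: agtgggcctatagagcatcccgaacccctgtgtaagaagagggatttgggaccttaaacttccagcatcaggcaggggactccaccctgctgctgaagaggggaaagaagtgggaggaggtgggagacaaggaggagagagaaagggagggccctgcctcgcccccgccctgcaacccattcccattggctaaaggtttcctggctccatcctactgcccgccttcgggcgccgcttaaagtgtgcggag
Both strands were searched for 4 motifs in windows from 250 bases before to 50 after the start, for all 11 promoters of the 10 members and for 32851 mouse promoters. The TC box of the acinar factor PTF1, TTTCCCA, stood in the Sardh and Shmt2 promoters (TGGGAAA, the other strand), and 8.06% of all promoters hold it. The core of the antioxidant response element, TGACNNNGC, stood before the Phgdh start (GCGGAGTCA) and after the Psph start, and 12.4% of all promoters hold it. The composite element bound by ATF4, TGATGNAA (3.97% of all promoters), and the E-box CACGTG (7.15%) had no match in these 11 windows. These are letter matches within short windows and no evidence of binding.

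Both enzymes of creatine synthesis and Sardh were lower in every Ide-/- library. Gatm (ENSMUSG00000027199; GRCm38 chromosome 2, 122594467 to 122611303) had 38.1, 29.4 and 25.2 CPM in Ide-/- libraries, against 909, 137, 144, 355 and 465 CPM in Ide+/+ replicates 1 to 5. The groups did not overlap, and the Ide+/+ libraries themselves spanned 6.64-fold. The log2 fold change, Ide-/- over Ide+/+, was -3.70 (SE 0.65). Gamt (ENSMUSG00000020150; chromosome 10, 80258151 to 80261012) had 1.17, 1.67 and 1.28 CPM in Ide-/- libraries, against 78.3, 25.1, 26.2, 64.8 and 61.9 CPM in Ide+/+ libraries, a log2 fold change of -5.21 (SE 0.49). Its lowest Ide+/+ library was thus far above its highest Ide-/- library. Sardh (ENSMUSG00000009614; chromosome 2, 27188393 to 27248337) had 0.223, 0.407 and 0.183 CPM in Ide-/- libraries, against 16.0, 9.06, 9.14, 26.7 and 12.4 CPM in Ide+/+ libraries (log2 fold change -5.67, SE 0.51). The Ide-/- values of Sardh rested on estimated counts of 8.19, 10.2 and 2.02, so the size of that difference is known only roughly.

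The 3 enzymes of serine synthesis differed less from the first step of the pathway to the last. Phgdh (ENSMUSG00000053398; chromosome 3, 98313170 to 98339990) had 6.32, 4.64 and 3.03 CPM in Ide-/- libraries, against 111, 40.2, 39.2, 102 and 80.1 CPM in Ide+/+ libraries (log2 fold change -3.97, SE 0.45). Psat1 (ENSMUSG00000024640; chromosome 19, 15904678 to 15947337) had 3.81, 3.13 and 3.03 CPM in Ide-/- libraries, against 23.2, 11.6, 13.1, 32.9 and 23.2 CPM in Ide+/+ libraries (-2.62, SE 0.35). Psph (ENSMUSG00000029446; chromosome 5, 129765558 to 129787449) had 3.26, 3.42 and 2.93 CPM in Ide-/- libraries, against 7.21, 5.22, 5.86, 11.5 and 7.19 CPM in Ide+/+ libraries (-1.19, SE 0.27). None of the 3 genes overlapped between the genotypes, and Ide+/+ replicates 2 and 3 were the lowest of their group for each. Psph shares 452 bases with Cct6a on the opposite strand, and its expected counts were not whole in any of the 8 libraries. The strand setting of the counting is not given in the sources used here, so reads of that stretch cannot be assigned with certainty.

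**Figure D1:**
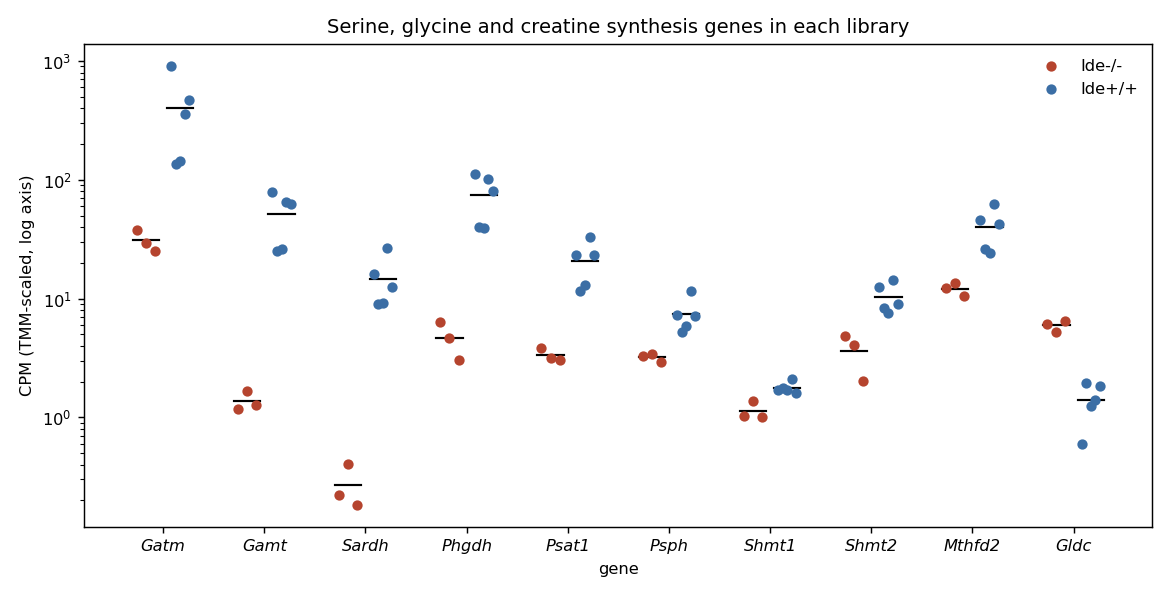
CPM of each of the 10 genes in each library on a log axis, with Ide-/- (3 points) left of Ide+/+ (5 points) for each gene and the group mean as a bar. The 9 genes from Gatm to Mthfd2 are lower in every Ide-/- library than in any Ide+/+ library, by the most for Sardh and Gamt, while Gldc is higher in every Ide-/- library.

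Of the folate-linked enzymes, Mthfd2 and Shmt2 were lower in every Ide-/- library by more than Psph on the log2 scale, and Shmt1 by less. Mthfd2 (ENSMUSG00000005667; chromosome 6, 83305691 to 83325908) had 12.2, 13.5 and 10.5 CPM in Ide-/- libraries, against 45.6, 26.0, 24.2, 63.0 and 42.5 CPM in Ide+/+ libraries (log2 fold change -1.73, SE 0.32). Shmt2 (ENSMUSG00000025403; chromosome 10, 127517123 to 127522444), the mitochondrial isozyme, had 4.82, 4.07 and 2.02 CPM in Ide-/- libraries, against 12.5, 8.38, 7.50, 14.2 and 9.01 CPM in Ide+/+ libraries (-1.46, SE 0.31). The cytosolic Shmt1 (ENSMUSG00000020534; chromosome 11, 60788104 to 60811718) had 1.03, 1.38 and 1.01 CPM in Ide-/- libraries, against 1.70, 1.76, 1.71, 2.12 and 1.61 CPM in Ide+/+ libraries, on 11.35 to 37.29 and 15.33 to 68.83 expected counts. Its log2 fold change was -0.63 (SE 0.29) on counts and 0.02 on log2(TPM + 1) values, so its direction depended on the unit. Shmt1 also shares 184 bases with Smcr8 on the opposite strand, and its expected counts were not whole in any of the 8 libraries. Reads of that stretch cannot be assigned with certainty either. TPM, a transcript's length-corrected share of its library, is not rescaled for the acinar share. By TPM, Shmt2 was 6.22, 2.94 and 3.2 times as abundant as Shmt1 in Ide-/- libraries and 7.47, 6.87, 3.9, 7.28 and 4.79 times in Ide+/+ libraries, which overlapped.

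Gldc (ENSMUSG00000024827; chromosome 19, 30098447 to 30175429) was the only one of the 10 that was higher in Ide-/- islets. It had 6.15, 5.21 and 6.42 CPM in Ide-/- libraries, against 0.601, 1.96, 1.24, 1.41 and 1.82 CPM in Ide+/+ libraries, with no overlap (log2 fold change 2.03, SE 0.30). The Ide+/+ values rested on 6 to 77 counts. In TPM the same held, with 2.54, 2.01 and 1.96 TPM in Ide-/- and 0.07, 0.60, 0.36, 0.27 and 0.27 TPM in Ide+/+ libraries. Of all tested genes, 17.4% were higher in every Ide-/- library by CPM and 39.3% by TPM. Gldc lies 7.09 Mb from Ide on chromosome 19, and Psat1 lies 21.3 Mb from it.

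Of the 10 genes 9 were called, as were 21.1% of tested genes in either direction. They were 8 called lower (10.6% of tested genes were) and 1 called higher (10.4% were), and since the genes were chosen on this contrast nothing is read from these counts. By CPM, 9 of the 10 lay lower in every Ide-/- library than in any Ide+/+ library, as did 15.6% of tested genes, and Gldc lay higher in every one, as did 17.4%. By TPM, 5 lay lower (Gatm, Gamt, Sardh, Phgdh and Psat1), as did 2.8% of tested genes, and Gldc lay higher, as did 39.3%. The median log2 fold change of the 10 was -2.18, against -0.01 for all tested genes, and on log2(TPM + 1) values it was -0.74, against 0.50. This median was between -2.32 and -1.95 when any 1 library was left out, and it was -2.12 without Ide+/+ replicate 1. The direction of calls over all genes depends on the unit: 1699 genes were higher and 1727 lower with edgeR (49.6% higher), while limma on log2(TPM + 1) called 5987 higher and 412 lower (93.6% higher).

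Levels can be compared between genes in TPM. In Ide-/- islets the order ran Gatm (19.4 ± 7.4 TPM), Mthfd2 (11.3 ± 4.0), Phgdh (3.54 ± 1.7), Psph (3.04 ± 1.0), Shmt2 (3.01 ± 1.6), Psat1 (2.64 ± 0.38), Gamt (2.28 ± 0.36), Gldc (2.17 ± 0.32), Shmt1 (0.743 ± 0.36) and Sardh (0.197 ± 0.20) (SD, n = 3). The members from Phgdh to Gldc in that order differed by no more than their spread. In Ide+/+ islets it ran Gatm (102 ± 44 TPM), Gamt (37.9 ± 6.8), Phgdh (27.0 ± 5.9), Mthfd2 (15.7 ± 4.8), Psat1 (6.63 ± 2.4), Sardh (4.85 ± 2.0), Shmt2 (4.11 ± 1.5), Psph (3.57 ± 1.2), Shmt1 (0.710 ± 0.28) and Gldc (0.314 ± 0.19) (SD, n = 5). There, Psat1, Sardh, Shmt2 and Psph overlapped as neighbours, as did Gamt and Phgdh. Gatm led both orders, and Gamt stood second in Ide+/+ islets but seventh in Ide-/- islets.

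Ratios within a library do not depend on scaling. The TPM ratio of Gatm to Gamt was 12.3, 6.96 and 6.34 in Ide-/- libraries, against 4.36, 2.06, 2.08, 2.06 and 2.80 in Ide+/+ libraries, so Gamt was lower relative to Gatm in every Ide-/- library. The ratio of Phgdh to Psph was 1.67, 0.889 and 0.915 in Ide-/- libraries, against 13.8, 6.48, 5.44, 7.36 and 8.26 in Ide+/+ libraries. The first enzyme of serine synthesis thus exceeded the last clearly in Ide+/+ libraries and stood near it in Ide-/- libraries. The ratio of Gldc to Shmt2 was 0.567, 0.617 and 1.53 in Ide-/- libraries, against 0.0276, 0.0982, 0.0872, 0.0538 and 0.0989 in Ide+/+ libraries.

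Within Ide+/+ alone, the acinar enzyme share gives a second axis. The genes were chosen partly by how they varied along it, so nothing is read from the counts of genes in this paragraph. Replicates 2 and 3 had shares of 40.1% and 40.5%, and the other 3 had 63.2% to 74.8%. By CPM, 8 of the 10 genes were lower in both libraries of lower share than in the other 3, as were 20.6% of tested genes, with Shmt1 and Gldc as the exceptions. None of the 10 was higher in both, as 21.6% of tested genes were. Per granule gene count, 7 were lower in both, as were 20.5% of tested genes, and Psph was the further exception. By TPM, 2 of the 10 were, Gatm and Gamt, as were 1.25% of tested genes. Gatm had 174.58 TPM in replicate 1, 102.65 in replicate 5, 100.13 in replicate 4, and 67.3 and 66.0 in replicates 3 and 2, which is the order of the acinar shares. Gamt had 40.0, 32.03, 32.33, 48.55 and 36.69 TPM in replicates 1 to 5. Phgdh had 27.13, 24.76, 23.16, 37.04 and 22.72 TPM, so its lowest and its highest library were both at a high acinar share. The 5 libraries are too few for a correlation, and TMM factors in Ide+/+ libraries ran from 0.405 in replicate 1 to 1.18 in replicate 2, so CPM carries the acinar share through its scaling as well.

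**Figure D2:**
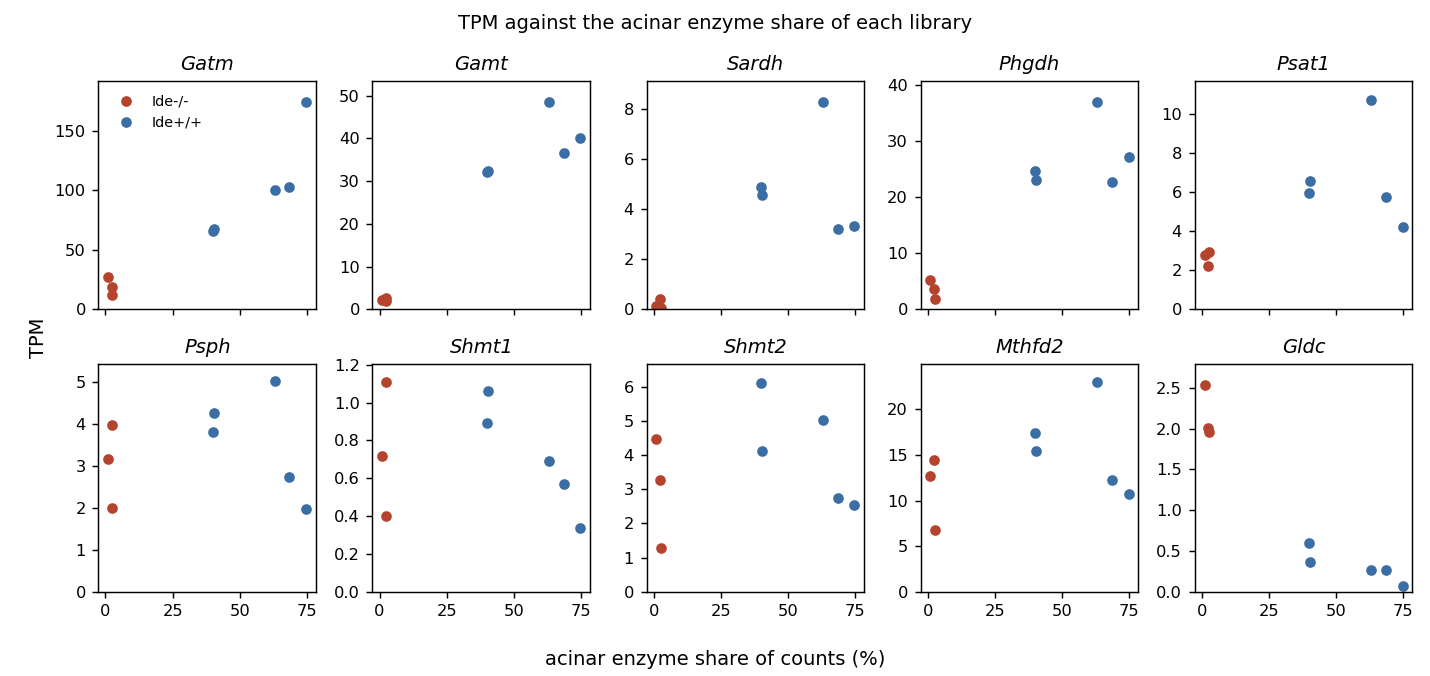
TPM of each gene (vertical axis, linear, from 0) against the acinar enzyme share of counts in percent (horizontal axis), with 1 point per library, 3 Ide-/- and 5 Ide+/+. Ide-/- libraries lie at shares of 1.06% to 2.59% and Ide+/+ libraries at 40.1% to 74.8%. Gatm and Gamt are higher in the 3 Ide+/+ libraries of larger share than in the other 2, and Gamt, Sardh, Phgdh, Psat1, Psph and Mthfd2 peak in Ide+/+ replicate 4.

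Set directly against the acinar enzymes, without any scaling, Gatm was the steadiest of the 10 across Ide+/+ libraries. It had 4.92, 4.02, 4.10, 3.60 and 3.28 counts per 10000 acinar enzyme counts in Ide+/+ replicates 1 to 5, a span of 1.5-fold, while its CPM spanned 6.64-fold. In Ide-/- libraries it ran from 14.9 to 74.0, above every Ide+/+ library. Gamt had 2.27, 1.25 and 0.758 counts per 10000 in Ide-/- libraries, against 0.424, 0.738, 0.745, 0.657 and 0.437 in Ide+/+ libraries, and the lowest Ide-/- value stood just above the highest Ide+/+ value. Sardh was the only one of the 10 whose genotypes overlapped on this ratio, with 0.443, 0.310 and 0.109 in Ide-/- libraries, against 0.0869, 0.266, 0.259, 0.271 and 0.0878 in Ide+/+ libraries. The overlap came from Ide-/- replicate 3 alone, where Sardh had an expected count of 2.02. The ratio was higher in every Ide-/- library for 98.2% of tested genes, so the other 9 genes do not stand out by it, and it was lower in every Ide-/- library for none of the 10 and for 0.0984% of tested genes. Among 10 genes of acinar identity 3 were higher in every Ide-/- library.

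**Figure D3:**
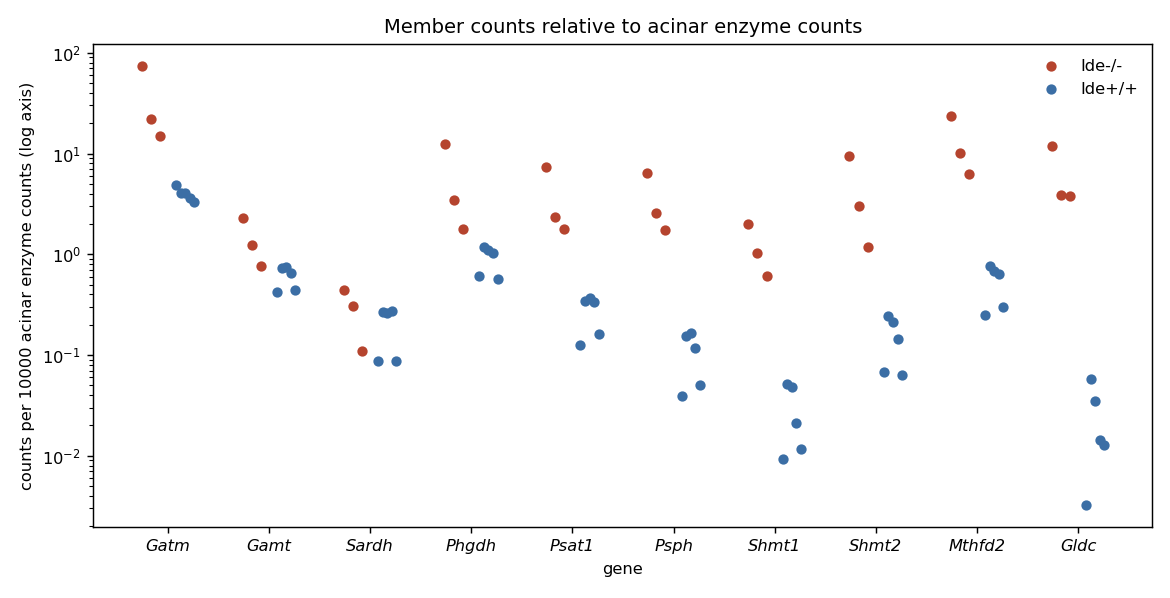
Counts of each gene per 10000 counts of the 29 acinar enzymes in each library, on a log axis, with Ide-/- (3 points) left of Ide+/+ (5 points). Gatm spans 3.28 to 4.92 in Ide+/+ libraries, and Sardh is the gene whose 2 groups overlap, through Ide-/- replicate 3 alone (expected count 2.02).

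Secretory granule genes give a scale from the endocrine cells. Per 10000 counts of 15 granule genes, Phgdh had 10.8, 9.31 and 6.96 counts in Ide-/- libraries, against 142, 70.6, 69.3, 197 and 208 in Ide+/+ libraries. Mthfd2 had 20.8, 27.1 and 24.3 in Ide-/- libraries, against 58.4, 45.7, 42.8, 122 and 110 in Ide+/+ libraries. On this scale 8 of the 10 genes were lower in every Ide-/- library (10.4% of tested genes were) and Gldc was higher in every one (14.7% were). The genes were chosen on this contrast, so nothing is read from these counts. Of the 15 granule genes themselves, DESeq2 called 3 higher and 0 lower in Ide-/- islets, and limma on TPM values called 6 higher and 0 lower. Shmt1 overlapped, with 1.77, 2.77 and 2.39 in Ide-/- libraries, against 2.18 to 4.27 in Ide+/+ libraries.

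The length column of the deposited files is the mean length of a gene's transcripts weighted by their estimated abundance. It was not itself used to choose the genes, but TPM, which was used, is corrected for length. The length was tested for the 8 members with at least 10 counts in every library. The test was a two-sided exact permutation over 56 splits, for which the smallest possible p is 0.0179. Gatm transcripts averaged 2236 ± 67.6 bases in Ide-/- libraries (SD, n = 3) and 2351 ± 17.7 bases in Ide+/+ libraries (SD, n = 5), with no overlap (exact permutation p = 0.0179, adjusted p = 0.143 over 8 genes). Mthfd2 transcripts ran from 1391 to 1785 bases in Ide-/- and from 1732 to 1942 bases in Ide+/+ libraries (n = 3 and n = 5, exact permutation p = 0.0536, adjusted p = 0.143). Psat1 transcripts ran from 1218 to 2119 bases in Ide-/- and from 2077 to 2472 bases in Ide+/+ libraries (n = 3 and n = 5, exact permutation p = 0.0357, adjusted p = 0.143). None of the 8 passed after adjustment, and 2 had an unadjusted exact p under 0.05, Gatm and Psat1. With at least 50 counts in every library only Gatm and Mthfd2 entered, and the adjusted p of Gatm was then 0.0357 (exact permutation, n = 3 and n = 5). Lengths of genes outside the members were not compared. How common such differences were over all genes was therefore not tested, and none is read as particular to Gatm.

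The 10 genes were compared with the rest of the pathway, listed by their place in it. The lists were made with earlier results of these data known. Of 88 listed genes outside the members 73 were tested, and 24 were lower and 5 higher in Ide-/- islets. Their median log2 fold change was -0.60, against -0.01 for all tested genes. With edgeR the backgrounds are 10.6% lower and 10.4% higher over all genes. Without any 1 library the lower count ran from 16 to 28. The higher count was 2 without Ide-/- replicate 2 or 3. On log2(TPM + 1) values 12 were lower and 19 higher, beside 412 lower and 5987 higher of all 16266 tested genes. The acinar share differed beside all of these lists.

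Enzymes that use serine or form glycine were among the genes that fell. Means are given with their SD (n = 3 Ide-/- and 5 Ide+/+). Gcat, which cleaves 2-amino-3-ketobutyrate to glycine, fell to 5.17 ± 1.2 CPM in Ide-/- islets, against 99.3 ± 45 CPM in Ide+/+ islets (log2 fold change -4.24, SE 0.46, adjusted p = 0.00045, edgeR quasi-likelihood test). Gnmt, which methylates glycine to sarcosine, fell to 2.93 ± 0.87 CPM in Ide-/-, against 47.3 ± 23 CPM in Ide+/+ (-4.04, adjusted p = 0.0006, edgeR). The transsulfuration genes Cbs, which joins serine to homocysteine, and Cth fell (log2 fold changes -2.53 and -4.18, adjusted p = 0.0011 and 0.00064, edgeR). The serine dehydratase-like gene Sdsl fell by 1.64, a call lost on TPM values. Agxt2, a mitochondrial aminotransferase, rose to 5.28 ± 1.1 CPM in Ide-/-, against 0.913 ± 0.55 CPM in Ide+/+ (2.37, adjusted p = 0.0025, edgeR). Of 10 tested genes of serine use 4 were lower and 1 higher, and of 7 tested genes of sarcosine, choline and betaine 2 were lower, Gnmt and the antiquitin gene Aldh7a1 (-2.39). That second count was 4 without Ide+/+ replicate 2, 5 without Ide+/+ replicate 3, and 4 with DESeq2.

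Subunits of the glycine cleavage system moved apart. Amt, the aminomethyltransferase subunit, rose to 11.7 ± 2.4 CPM in Ide-/-, against 6.37 ± 1.1 CPM in Ide+/+ (log2 fold change 0.86, adjusted p = 0.014, edgeR), the direction in which Gldc stood. Gcsh, the lipoate carrier subunit, fell to 6.94 ± 0.70 CPM in Ide-/-, against 16.4 ± 7.9 CPM in Ide+/+ (-1.23, adjusted p = 0.022, edgeR). The call of Amt was lost without Ide-/- replicate 2 or 3 and with secretory granule scaling, and that of Gcsh without any 1 Ide-/- library, with the replicate block and on TPM values. The heme synthesis gene Alas1, which uses glycine, fell by 0.98 on the log2 scale, a call lost without any 1 of 6 libraries (the 3 Ide-/- ones and Ide+/+ replicates 3, 4 and 5), on TPM values, with granule scaling and with the replicate block. In this list of 5 tested genes 3 were lower and 1 higher, and leaving out Ide-/- replicate 1 or 2 left 1 lower.

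Of 17 tested genes of folate metabolism 4 were lower and 2 higher. Ggh, a folate polyglutamate hydrolase, fell to 14.9 ± 3.5 CPM in Ide-/-, against 422 ± 350.0 CPM in Ide+/+ (log2 fold change -4.83, SE 0.78, adjusted p = 0.002, edgeR), and Aldh1l1, the cytosolic formyltetrahydrofolate dehydrogenase, fell by 3.64. Its mitochondrial relative Aldh1l2 fell by 1.41, a call lost without Ide-/- replicate 2 or 3 or Ide+/+ replicate 4, and on log2(TPM + 1) values its fold change was 0.08. Thymidylate synthase, Tyms, rose to 18.4 ± 1.0 CPM in Ide-/-, against 9.69 ± 1.1 CPM in Ide+/+ (0.92, adjusted p = 0.0036, edgeR). Leaving out Ide-/- replicate 2, Ide-/- replicate 3 or Ide+/+ replicate 4 left 2 of this list lower, and leaving out Ide+/+ replicate 5 gave 7. Leaving out Ide+/+ replicate 2 or 4, or an Ide-/- library, left 1 higher.

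**Figure D4:**
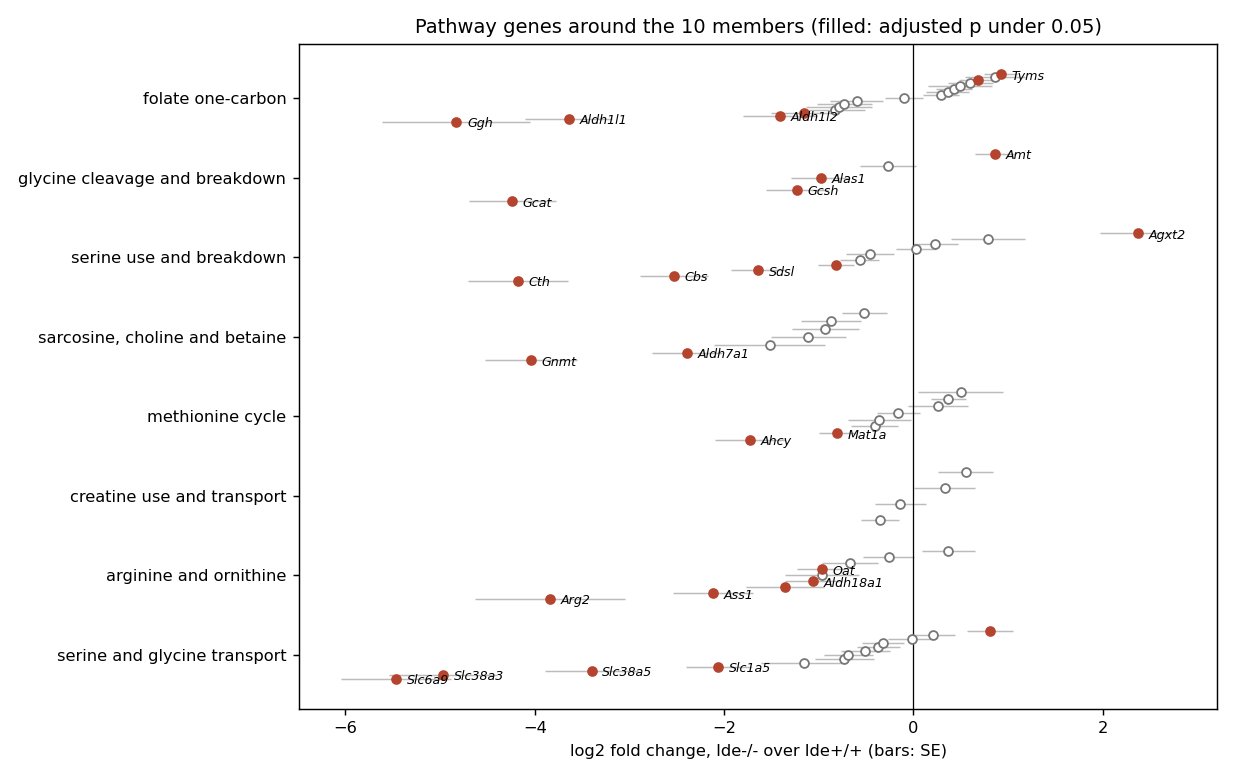
Log2 fold change, Ide-/- over Ide+/+, of the 73 tested pathway genes outside the 10 members, 1 point per gene with its SE as a bar, in rows by list. Filled points have an adjusted p under 0.05 (24 lower, 5 higher), and the lowest are Slc6a9, Slc38a3 and Ggh.

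Carriers of glycine and serine held the lowest value among the pathway genes. Slc6a9, the glycine transporter GLYT1, fell to 0.178 ± 0.16 CPM in Ide-/-, against 9.67 ± 4.6 CPM in Ide+/+ (log2 fold change -5.47, SE 0.58, adjusted p = 0.00043, edgeR). Its Ide-/- values of 0.362, 0.0813 and 0.0917 CPM lay near the floor, so the size of the difference is known only roughly. It was -6.73 without Ide-/- replicate 1. The amino acid carriers Slc38a3, Slc38a5 and Slc1a5 fell (log2 fold changes -4.97, -3.40 and -2.06), and the last call was lost on TPM values. Of 13 tested carriers 4 were lower and 1 higher, Slc36a1, and none was higher without Ide-/- replicates 2 or 3 or Ide+/+ replicates 3 or 5. Genes of arginine and ornithine metabolism, which supplies GATM, had 5 of 9 tested members lower, among them Ass1 (-2.12), Arg2 (-3.84), Oat (-0.97) and Aldh18a1 (-1.06). Leaving out Ide-/- replicate 1, Ide-/- replicate 2 or Ide+/+ replicate 4 left 3 lower, and leaving out Ide-/- replicate 3 left 2. Oat was not called without Ide-/- replicate 1 or 3, nor Aldh18a1 without any 1 Ide-/- library or Ide+/+ replicate 4. Both calls were also lost on TPM values, where both log2 fold changes were -0.06 on log2(TPM + 1), and that of Oat with granule scaling and the replicate block. The call of Ass1 was lost on log2(TPM + 0.1) values.

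Of 4 tested genes that use or carry creatine none was called by edgeR or DESeq2, and 0 had an unadjusted edgeR p under 0.05. Limma on log2(TPM + 1) called 3 of the 4 higher, and it called 5987 of all 16266 tested genes higher. Ckb, the brain-type creatine kinase, had 15.7 ± 6.0 CPM in Ide-/- (SD, n = 3) and 12.6 ± 5.0 CPM in Ide+/+ islets, with a log2 fold change of 0.33 that was -0.03 without Ide-/- replicate 1. The carrier gene Slc16a12 had 28.0 ± 0.70 CPM in Ide-/- and 30.9 ± 13 CPM in Ide+/+ islets (log2 fold change -0.14, and 0.14 without Ide+/+ replicate 1). In the methionine cycle, which supplies the methyl group of GAMT, 2 of 8 tested genes were lower. They were Ahcy (-1.73), lost with the replicate block and on TPM values, and Mat1a (-0.81), lost without Ide-/- replicate 1 or 3, with granule scaling and with the replicate block, and at 0.09 on log2(TPM + 1) values. Leaving out Ide-/- replicate 1 or 3 left 1 of the 8 lower.

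Of 14 genes of the ATF4 axis 4 were lower and 0 higher with edgeR, where 5 had an unadjusted p under 0.05 in either direction, and DESeq2 called 5 lower and 0 higher. Atf4 itself had 46.9, 47.1 and 44.1 CPM in Ide-/- libraries, against 38.9, 45.3, 42.6, 56.7 and 35.2 CPM in Ide+/+ libraries, which overlapped (log2 fold change 0.07). Asns, the asparagine synthetase gene, fell to 22.5 ± 4.6 CPM in Ide-/-, against 182 ± 120.0 CPM in Ide+/+ (log2 fold change -3.01, adjusted p = 0.0031, edgeR). Nupr1, a stress-induced chromatin protein gene, fell by 4.64 on the log2 scale. Sesn2 (-1.40) was not called without Ide-/- replicate 2 or 3 nor Chac1 (-1.88) without Ide-/- replicate 1 or 3, so that 2 of the 4 remained without replicate 3. Both were not called on TPM values.

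The gene nearest to each member by its pattern over the 8 libraries was found from the mean absolute difference of centred log2 CPM. A prior count of 2 was used, so genes of low counts can be near in pattern and differ in fitted fold change. Nearest to Phgdh was Gcat, the glycine-forming gene above, at 0.117 log2 units, where the median tested gene stood at 1.85. Nearest to Sardh was Rbpjl, a subunit of the acinar transcription factor PTF1, at 0.219 (median 2.49). Gatm was nearest to Trim50 (0.138), whose fitted log2 fold change was -5.35, against -3.70 for Gatm. Gamt was nearest to Gm10109 (0.195), Psat1 to Gstp-ps (0.149) and Mthfd2 to Abcb6 (0.119). Psph was nearest to Rps28 (0.11), Shmt1 to Tmem131l (0.0589) and Shmt2 to Rps3a2 (0.126). Gldc was nearest to Gm15535 (0.155), followed by the chromosomal passenger gene Cdca8 (0.193). Between members the closest pairs were Psph with Shmt2 (0.252) and Shmt2 with Mthfd2 (0.279), and Gldc stood at least 1.27 from every other member.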

How the data were processed

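RNA sequencing tables of 8 islet samples were used, 3 Ide-/- and 5 Ide+/+, grouped by the genotype in the labels. The tools were STAR 2.7.1a for alignment and RSEM 1.3.1 for counting, with the GRCm38 genome, per the submitters' processing notes. Annotation release and strand setting are not given in the sources used here. Deposited by the authors were an expected count per gene (not normalized, with shared reads divided by a model), TPM, and a transcript length; the length is in bases and has no other unit. Symbols came from GENCODE M21 (55227 of 55487 identifiers).

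Expected counts were rounded and tested with edgeR 4.0.16 in R 4.3.3 (TMM, default low-count filter, robust quasi-likelihood F test, genotype as the only term), with Benjamini-Hochberg adjustment over 16266 genes and calls at 0.05. Each SE was taken as the size of the log2 fold change over the root of its F statistic. The steps were tested on simulated data. Alternatives were DESeq2 1.42.0, limma 3.58.1 on log2(TPM + 1) and log2(TPM + 0.1), no filter, other scalings, a replicate block and leaving out each library. Replicate numbers do not pair the samples, and no block is in the main comparison.

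The members and gene lists were chosen with earlier results of these data known. Pathway genes were named by rule: up to 4 called genes of each list with the smallest p, otherwise the 2 with the highest mean CPM. The 3 genes nearest to each member in pattern were found, of which the nearest is given, and for Gldc also the next. Atf4, Slc36a1, Xist, Ddx3y and Cela3a were named after their values were seen. Pycr3 had no matching symbol. Library depth was 7143415 to 33371642 counts, and values near 1 CPM rest on few counts.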

Additional observations from a re-analysis of the deposited data

Results flagged for a closer look

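Within the 5 Ide+/+ libraries 41 genes were examined for a library far from the others, and 3 were found. Chance alone gives about 1 in 20 of the genes examined, so nothing is read from the number found. Shmt1 had 2.12 CPM in Ide+/+ replicate 4, above a group median of 1.71 CPM. Alas1 had 27.3 CPM in Ide+/+ replicate 1, above a median of 16.8 CPM, and the carrier gene Slc16a12 had 53.2 CPM in the same library, above a median of 26.4 CPM.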

How the results depend on the processing

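Under the 15 settings tried, 9 of the 10 members kept the direction of their log2 fold change. Of these, Psph, Shmt2 and Mthfd2 overlapped between genotypes in TPM, with log2 fold changes of -0.16, -0.39 and -0.46 on log2(TPM + 1) values. Shmt1 turned to 0.02 on log2(TPM + 1) and 0.04 on log2(TPM + 0.1) values. The median of the members was -0.74 and -0.88 on these values, where the median of all genes was 0.50 and 0.83, and it was -2.32 to -1.95 with 1 library left out. All genes called higher numbered 868 with secretory granule scaling, 5987 and 4772 on the TPM values, 482 with the replicate block and 694 to 2141 with 1 library left out. Those called lower numbered 822, 412, 385, 648 and 809 to 2139 in the same order of settings. Pathway genes called higher were 3 with granule scaling, 19 and 14 on the TPM values, 3 with the replicate block and 2 to 6 with 1 library left out, and those called lower were 12 and 11 on the TPM values and 16 to 28 with 1 library left out. Fold changes of other named genes turned for Aldh1l2 (0.08 on both TPM scales), Mat1a (0.09 and 0.10), Slc16a12 (0.72 and 0.82, 0.06 with granule scaling and -0.24 to 0.14 with 1 library left out, the highest without Ide+/+ replicate 1) and Ckb (-0.03 to 0.53 with 1 library left out, the lowest without Ide-/- replicate 1). The cause of these changes was not tested. The replicate block used 6 libraries, in which 737 genes were higher and 784 lower without it. Same-numbered libraries deviated with correlations of 0.0485, 0.00918 and -0.0934, and Ide-/- replicate 1 was closest to Ide+/+ replicate 2. Among the 10 members, depth limits Sardh in Ide-/- and Gldc in Ide+/+ most, at as few as 2.02 and 6 counts. Named pathway genes also lay near the floor in Ide-/- libraries. Slc6a9 had as little as 0.0813 CPM, Slc38a3 0.167 CPM and Arg2 0 CPM.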
